A study of Mus musculus with 2 samples.

Results

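Chaperones were measured as a module of 82 genes in erythroblasts of the mouse, red cell precursors that still have a nucleus. The module took every gene typed protein coding in the GENCODE M21 annotation that was present in both gene tables and whose symbol starts with Hspa, Hspb, Hspd, Hspe, Hsph, Hsp90 or Dnaj, or is Tcp1 or Cct followed by a digit. The rule uses gene symbols and gene types only. The 82 genes stand among 42462 annotated gene rows and 21461 nuclear protein-coding genes. They comprised 13 Hsp70 and Hsp110 genes, 3 Hsp90 genes, 45 J-domain genes, 9 genes with TRiC symbols, the pair of mitochondrial chaperonin genes and 10 genes with Hspb symbols. Cct6a encodes a TRiC subunit, but GENCODE M21 types it as a processed transcript, so it is described beside the members and not counted with them.

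The study sequenced total RNA of primary erythroblasts from adult male C57BL/6J mice of 5 to 6 weeks, with no treatment or altered allele named. It holds 1 group of 2 libraries, biological replicates 1 and 2, each made from 1 ng of RNA. Both libraries have their own biosample, the labels enter 1 donor for both, and no label names separate animals, so the spread between the libraries may be technical. There is no second condition, so no test between conditions was possible.

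Chaperones bind unfolded or partly folded proteins and help them reach or keep their fold. Hsp70 binds short exposed stretches of a client in a cycle driven by ATP, J-domain proteins bring clients to Hsp70 and stimulate its ATPase, and exchange factors, Hsp110 among them, release the nucleotide. Hsp90 acts later on selected clients such as kinases and steroid receptors, while the barrel-shaped chaperonins TRiC (cytosol) and Hsp60 with Hsp10 (mitochondrial matrix) enclose a client. In human erythroblasts, Hsp70 in the nucleus is known to shield the transcription factor GATA1 from caspase cleavage.

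The promoters of some members carry textbook stress elements, and 5 windows that hold such letters are shown here because they set the cytosolic, mitochondrial and endoplasmic reticulum (ER) genes described later side by side. Each window runs from 250 bases before to 50 bases after an annotated start (RefSeq, GRCm38.p6), and 67 of the 82 members had one. Those without a window were Cct4, Dnajc2, Dnajc5, Dnajc5b, Dnajc11, Dnajc12, Dnajc18, Dnajc22, Dnajc30, Hsp90aa1, Hsp90ab1, Hspa8, Hspa9, Hspa13 and Hspb2. The heat shock element was searched as the pair GAANNTTC or TTCNNGAA, each its own reverse complement, and as the triplet GAANNTTCNNGAA or TTCNNGAANNTTC, which contains the pair. The pair was found in 19 of the 67 members (28.4%), against 17.0% of all 27025 genes with a window. The triplet was found in 4 members, Dnajb6, Hspd1, Hspe1 and Hsph1 (5.97%), against 0.662% of all genes. Hspd1 and Hspe1 lie head to head, and their windows cover the same triplet bases on opposite strands. Capitals mark the matched bases in the windows of Hspe1 and Dnajb6, and in Hspa1b, a heat-inducible Hsp70 gene whose window holds the pair alone.
Hspe1 (chr1:55087898-55088197, plus strand): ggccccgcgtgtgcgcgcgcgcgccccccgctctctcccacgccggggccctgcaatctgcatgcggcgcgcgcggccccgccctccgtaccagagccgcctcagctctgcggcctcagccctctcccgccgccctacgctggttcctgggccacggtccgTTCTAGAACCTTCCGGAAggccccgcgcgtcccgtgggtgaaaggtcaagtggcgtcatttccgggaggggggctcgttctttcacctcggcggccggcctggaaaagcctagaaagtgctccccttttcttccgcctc
Dnajb6 (chr5:29735648-29735947, plus strand): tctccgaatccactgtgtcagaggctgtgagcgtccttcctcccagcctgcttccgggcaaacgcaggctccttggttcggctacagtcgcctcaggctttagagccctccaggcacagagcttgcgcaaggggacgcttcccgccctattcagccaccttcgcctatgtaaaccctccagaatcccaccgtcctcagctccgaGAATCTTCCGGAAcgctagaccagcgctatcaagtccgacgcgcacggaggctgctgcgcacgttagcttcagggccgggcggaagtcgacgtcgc
Hspa1b (chr17:34959189-34959488, minus strand): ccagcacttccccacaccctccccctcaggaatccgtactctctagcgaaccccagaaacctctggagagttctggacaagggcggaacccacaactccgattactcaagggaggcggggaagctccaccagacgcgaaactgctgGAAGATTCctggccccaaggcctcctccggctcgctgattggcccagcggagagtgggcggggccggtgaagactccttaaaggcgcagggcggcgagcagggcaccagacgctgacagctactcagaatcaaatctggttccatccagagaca

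The ER stress element was searched as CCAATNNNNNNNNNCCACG and its reverse complement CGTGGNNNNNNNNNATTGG. It was found in the windows of 3 members, Dnajc3, Hsp90b1 and Hspa5 (4.48% of 67), against 0.137% of all genes. All 3 encode ER proteins. The window of Hspa5 holds 1 match and that of Hsp90b1 holds 2, in capitals. A match describes letters in these windows and is not evidence of a bound site.
Hspa5 (chr2:34771840-34772139, plus strand): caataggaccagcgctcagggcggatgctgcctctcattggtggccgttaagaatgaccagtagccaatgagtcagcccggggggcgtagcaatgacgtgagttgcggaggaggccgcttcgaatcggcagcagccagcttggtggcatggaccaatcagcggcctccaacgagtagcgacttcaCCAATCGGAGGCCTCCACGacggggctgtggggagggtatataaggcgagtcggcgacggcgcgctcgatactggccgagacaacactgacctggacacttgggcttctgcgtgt
Hsp90b1 (chr10:86705395-86705694, minus strand): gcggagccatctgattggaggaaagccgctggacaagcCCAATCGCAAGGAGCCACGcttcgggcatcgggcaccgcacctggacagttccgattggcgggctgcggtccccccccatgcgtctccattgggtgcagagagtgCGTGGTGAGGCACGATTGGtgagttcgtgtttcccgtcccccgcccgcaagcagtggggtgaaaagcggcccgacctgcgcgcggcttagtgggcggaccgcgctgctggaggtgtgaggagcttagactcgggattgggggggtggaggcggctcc

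The libraries held 80806663 expected counts in replicate 1 and 117032607 in replicate 2, of which nuclear protein-coding genes took 5.44% and 5.82%. Mitochondrial rRNA took 80.5% and 81.6% of the counts, so levels are given as rescaled TPM, the deposited length-corrected abundance scaled so that nuclear protein-coding genes sum to 1000000. The chaperones held 26164 and 43753 expected counts. All 11 erythroid markers were detected and took 45.1% and 44.8% of nuclear protein-coding TPM, mostly globin. All 13 neutrophil markers were also detected, at 4.41% and 4.66%, as were all 7 macrophage markers, with a summed rescaled TPM of 312 and 323. Of the T and NK cell markers, 1 of 5 was detected, Nkg7 with a rescaled TPM of 108 and 126, and Cd3d and Cd8a had 0 counts. The part of these other cells in the chaperone levels was not tested. In bulk RNA, fewer cells of a type and less RNA per cell cannot be told apart.

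Most of the module was expressed, and a few genes carried most of its RNA. A gene was called detected at a rescaled TPM of at least 1 in both libraries, which 61 of 82 chaperones reached (74.4%), against 42.9% of the 21461 nuclear protein-coding genes. At least 10 expected counts in both libraries were also held by 61 members, against a background of 42.8%. The sets were not the same. Dnajc15, Dnajc19 and Dnajc30 passed only the rule of rescaled TPM, and Dnajb5, Dnajc16 and Dnajc27 passed only that of counts. The median rescaled TPM of the 82 members was 13.0, against 0.748 over all nuclear protein-coding genes, and that of the detected members was 24.3, against 14.7 over all detected genes. Of the detected members, 9 averaged 100 or more, 33 stood between 10 and 100, and 19 stood under 10. The summed chaperone TPM was 0.381% of the nuclear protein-coding total in replicate 1 and 0.405% in replicate 2 (0.393% ± 0.0174, SD, n = 2). The leading gene took 17.7%, the leading 5 took 41.0% and the leading 10 took 61.2% of that sum.

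**Figure D1:**
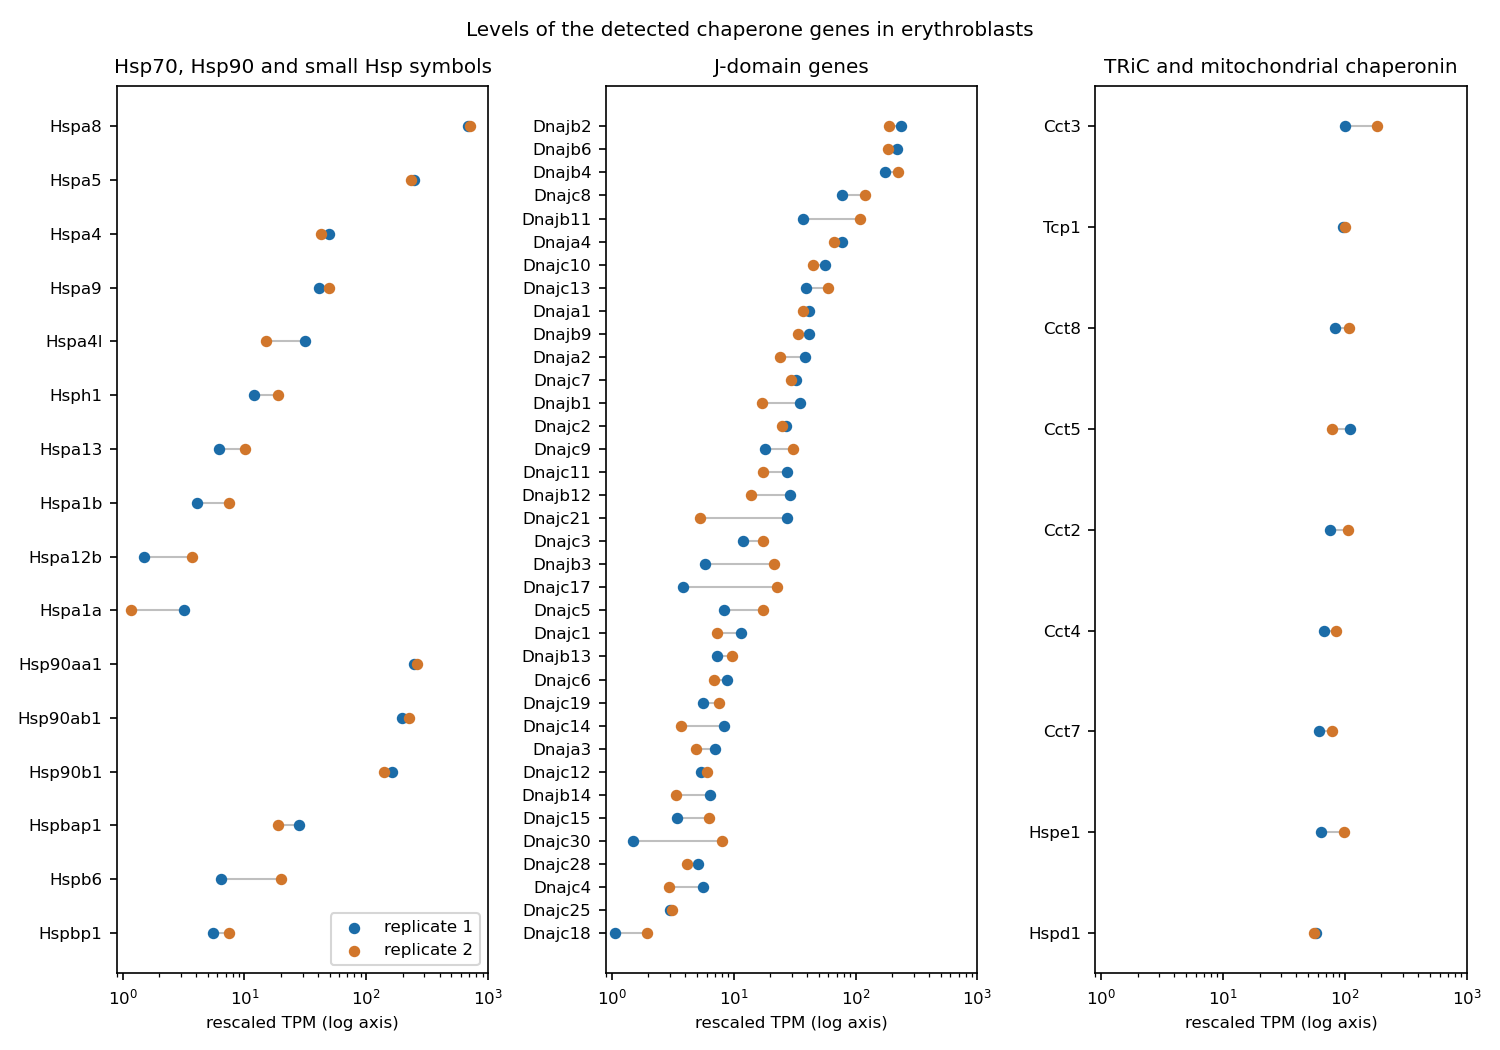
Rescaled TPM (log axis) of the 61 detected chaperone genes in each library, with a grey line joining both values of a gene. Hspa8 leads at 679 and 708, 9 genes average 100 or more, and the libraries lie farthest apart among genes of low level such as Dnajc17 and Dnajc21.

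J-domain genes held the largest share of the chaperone TPM by family, 35.8% in replicate 1 and 34.2% in replicate 2. The Hsp70 family followed with 28.2% and 27.1%. Both libraries gave that order. TRiC took 15.6% and 18.2%, and Hsp90 took 15.9% and 15.4%, so the values of these families overlapped between libraries. Their order was not resolved by TPM over the members. With Cct6a counted as a member, an alternative chosen after seeing the data, TRiC took 16.6% and 18.95%, above those Hsp90 values in both libraries. Over protein-coding transcripts alone, where Cct6a has none, Hsp90 lay above TRiC in both libraries. The shares were 18.6% against 16.3% in replicate 1 and 18.1% against 17.9% in replicate 2. Mitochondrial chaperonin took 3.20% and 3.83%, and the Hspb symbols took 1.24% and 1.15%. By expected counts, which grow with transcript length, Hsp90 took 21.3% and 21.1%, above TRiC at 13.2% and 15.2% in both libraries. The J-domain and Hsp70 shares lay closer by counts, at 33.8% against 27.7% in replicate 1 and 30.1% against 29.9% in replicate 2. The J-domain family led with 45 genes of mostly low level: its median gene had a rescaled TPM of 9.40, against 212 for the Hsp90 genes and 91.1 for those with TRiC symbols.

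**Figure D2:**
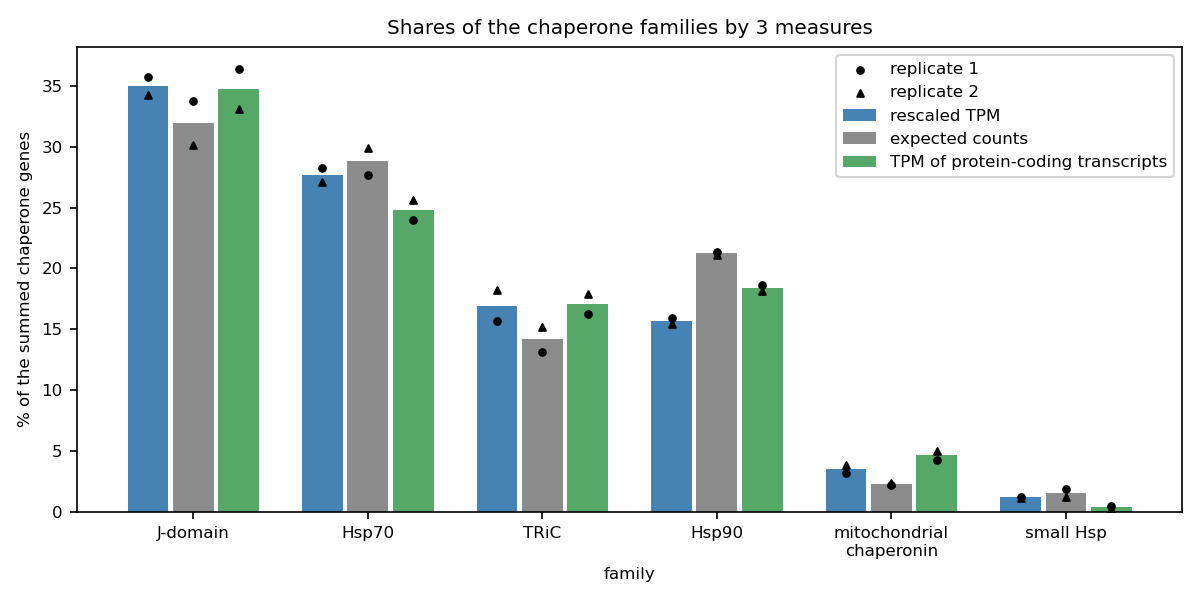
Share of the summed chaperone genes held by each family, by rescaled TPM, by expected counts and by the TPM of protein-coding transcripts alone. Bars are means of 2 libraries and points are the libraries. Hsp90 exceeds TRiC by counts in both libraries (21.3% and 21.1% against 13.2% and 15.2%) and by protein-coding transcripts (18.6% and 18.1% against 16.3% and 17.9%). By rescaled TPM the order differs between the libraries (15.9% and 15.4% against 15.6% and 18.2%).

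By compartment, the 8 members assigned to the ER took 15.0% and 14.6% of the chaperone TPM, and all 8 were detected. The 8 members assigned to the mitochondrion took 5.45% and 6.14%, and all 8 were detected as well. Of these, Dnajc15, Dnajc19 and Dnajc30 had under 10 counts in replicate 1 (6, 9.84 and 8). All Dnajc15 counts were in a transcript typed as a target of nonsense-mediated decay. Dnajc19 and Dnajc30 overlap Fxr1 (176 and 462 counts) and Bud23 (39 and 78 counts) on the opposite strand. The remaining 66 members, assigned to neither compartment, took 79.5% and 79.2%, with 45 detected. The assignment came from a list that may leave out members of either compartment, so these shares and detected numbers depend on it.

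Hspa8, the constitutive cytosolic Hsp70 (chaperone of clathrin uncoating and of chaperone-mediated autophagy), was the most abundant chaperone in both libraries. Its gene had 2990.2 expected counts and a rescaled TPM of 679 in replicate 1, and 5673 expected counts and a rescaled TPM of 708 in replicate 2 (694 ± 20.3). It ranked 133 and 135 among all nuclear protein-coding genes and held 63.2% and 64.4% of the TPM of the Hsp70 family. By counts that share was 42.3% ± 1.47, and within protein-coding transcripts it was 54.0% ± 1.09. Of the 50-base windows in its transcripts, 38.6% occur in other genes too, chiefly in the copy Gm15459, so its level depends on how the authors' quantifier shared reads among copies.

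Hspa5, the ER Hsp70 known as BiP, came next among the Hsp70 genes with a rescaled TPM of 246 and 234. Hspa9, the mitochondrial Hsp70 that also serves iron-sulfur cluster assembly, had 40.8 and 49.2. Hspa5 was above Hspa9 in both libraries, and the Hspa8 level was 2.77 and 3.03 times that of Hspa5. Over protein-coding transcripts alone the ratio of Hspa8 to Hspa5 was smaller, 1.65 and 1.87. Hspa13, a microsomal Hsp70-like protein, stood lower, at 6.20 and 10.2.

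The Hsp110 genes, which encode exchange factors for Hsp70, ranged below Hspa5. Hspa4 led them with 49.8 and 42.2, which overlapped the values of Hspa9. Hspa4l had 31.2 and 14.9, and Hsph1, the heat-inducible Hsp105, had 12.0 and 18.8. The counts of Hspa4l followed depth (385 and 598) although its TPM differed about 2-fold, and its leading transcript differed between the libraries.

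The heat-inducible pair Hspa1a and Hspa1b, the genes that rise most in a heat shock response, lay below the family median. Their mean rescaled TPM was 2.19 and 5.76, against a median of 8.20 over the Hsp70 family. Hspa1b had a rescaled TPM of 4.06 and 7.45, and Hspa1a had 3.21 and 1.18. The genes are near-identical, with 62.3% of the 50-base windows of Hspa1b and 60.4% of those of Hspa1a shared with other genes, so their split is uncertain. Their sum was 7.27 and 8.63, on 67.6 and 127 expected counts, and Hspa8 exceeded that sum 93.4-fold and 82.0-fold. Hspa1l, known from testis, was listed at 0 counts in replicate 1 and at 68.7 in replicate 2, and Hspa2, also known from testis, had 3 and 58 counts. Neither was detected by the rule. Hspa12b, a divergent Hsp70, had 1.50 and 3.73, and Hspa12a had 0 counts in both libraries.

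All 3 Hsp90 genes were among the 8 most abundant chaperones. Hsp90aa1, the stress-inducible cytosolic form, had a rescaled TPM of 245 and 259 on 2454 and 4249 expected counts. Hsp90ab1, the constitutive cytosolic form, had 198 and 226 on 1564 and 2882 counts. The lowest Hsp90aa1 value lay above the highest Hsp90ab1 value, and the log2 ratio of Hsp90ab1 to Hsp90aa1 was −0.31 and −0.19 (−0.25 ± 0.08). By counts the log2 ratio was −0.61 ± 0.06. Of the Hsp90aa1 windows, 47.5% are shared with other genes, chiefly Gm12346. Hsp90b1, the ER form known as Grp94, had 163 and 139, which was 26.9% and 22.2% of the Hsp90 TPM. The ER pair Hspa5 and Hsp90b1, whose promoter windows hold the ER stress element shown earlier, stood at a ratio of 1.50 and 1.68.

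Among the J-domain genes, 36 of 45 were detected: all 4 class A genes, 10 of 13 class B genes and 22 of 28 class C genes. Class B led by sum, with a rescaled TPM of 798 and 807, followed by class C with 398 and 448 and class A with 165 and 132. Dnajb2, Dnajb6 and Dnajb4 alone made up 46.1% and 43.3% of the J-domain TPM. The J-domain sum was 1.27 and 1.26 times the Hsp70 sum by TPM, and 1.22 and 1.01 times by counts.

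Dnajb2, a J protein with ubiquitin-binding motifs best known from neurons, had a rescaled TPM of 236 and 190. Dnajb6, known for holding back aggregation of polyglutamine proteins, had 218 and 186. Dnajb4, a cytosolic partner of Hsp70, had 173 and 225. The values of these 3 genes overlapped, so no order among them was resolved. Dnajb1, the canonical cytosolic Hsp40 and a heat-inducible gene, was well below them at 35.1 and 17.1. In the low range of class B, Dnajb5 had 8.13 and 0.39 and was not detected, while Dnajb7 and Dnajb8 had 0 counts.

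The J-domain members that the compartment list assigned to the ER were all detected. Dnajb11 (ERdj3), which delivers clients to BiP, had 37.0 and 108. Dnajc10 (ERdj5), a disulfide reductase, had 55.8 and 44.7, and Dnajb9 (ERdj4) had 41.5 and 33.5. Dnajc3, an ER-lumen co-chaperone whose promoter window also holds the ER stress element, had 12.0 and 17.3. Dnajc1, an ER membrane J protein, had 11.5 and 7.26. Only Dnajb11 of these had its replicate 2 level more than 2-fold above replicate 1. In replicate 2, 72.6% of its TPM came from a 546-base transcript that GENCODE M21 does not hold, against 26.6% in replicate 1, and its protein-coding transcripts, scaled so that all such transcripts sum to 1000000, gave 35.7 and 39.6.

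Class A genes act as general client-binding partners of Hsp70. Dnaja4 led them with 77.8 and 66.3, followed by Dnaja1 with 41.9 and 36.9 and Dnaja2 with 38.5 and 24.1. Dnaja4 lay above the other two in both libraries, while Dnaja1 and Dnaja2 overlapped. The mitochondrial Dnaja3 was lowest with 7.06 and 4.90.

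Class C genes carry a J domain in proteins of diverse function. Dnajc8, a protein associated with the spliceosome, led them with 76.8 and 119. Dnajc13, an endosomal protein, had 39.6 and 59.0, and Dnajc9, a histone chaperone, had 18.0 and 30.6. Both had higher rescaled TPM in replicate 2. For Dnajc13 the scaled counts were lower in replicate 2 (log2 ratio −0.36), and a 492-base transcript typed as a target of nonsense-mediated decay led its TPM in both libraries. Dnajc7 had 32.3 and 29.6, and Dnajc2, which works at the ribosome on nascent chains, had 26.9 and 24.7. Dnajc11, a mitochondrial protein, had 27.2 and 17.5. Dnajc21, which serves assembly of the large ribosomal subunit, had 27.2 in replicate 1 and 5.30 in replicate 2, on 129 and 46 counts. Summed over its transcripts it so has no settled level here. Most of the gap lay in the processed transcript Dnajc21-202, with a rescaled TPM of 22.2 and 2.35 on 97.8 and 16.52 counts. The coding Dnajc21-201 had 4.92 and 2.94 on 31.2 and 29.48 counts. Dnajc22, Dnajc5b and Dnajc5g had 0 counts.

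Over all transcripts, the 8 TRiC subunit genes had levels within 2.43-fold of each other in replicate 1 and 5.17-fold in replicate 2. The complex holds 8 different subunits in equal number. Tcp1, the alpha subunit, had a rescaled TPM of 97.1 and 99.6. Cct8 had 83.4 and 109, Cct5 had 111 and 78.6, and Cct2 had 75.5 and 107. Cct4 had 67.6 and 84.1, and Cct7 had 60.9 and 78.4. Each of these 6 genes overlapped at least one other in its values. Cct6a, the zeta subunit, had 45.8 and 35.3 on 226 and 277 counts, the lowest of the 8 subunits in both libraries. The testis form Cct6b and the Cct8 relative Cct8l1 had 0 counts in both libraries.

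Cct3, the gamma subunit, had the highest TRiC value when all transcripts were summed, 99.7 in replicate 1 and 182 in replicate 2, with replicate 1 inside the range of the other subunits. A 472-base retained-intron transcript (Cct3-203) carried 82.3% and 73.9% of that TPM on 93.3 and 234 counts. The full coding transcript (Cct3-201, 1977 bases) carried 14.1% and 20.3% on 87.4 and 366 counts. Within protein-coding transcripts, scaled in the same way, Cct3 had 18.5 and 51.8, the lowest of the 7 subunits typed protein coding in both libraries, against a median of 96.3 and 104. Over all transcripts, the short one included, Cct3 was thus the highest subunit in replicate 2 and by mean. In replicate 1 Cct5 lay above it, at 111. The highest of the 8 subunits was 2.43 and 5.17 times the lowest over all transcripts (3.80 ± 1.94), and 2.76 without Cct3. Over protein-coding transcripts the ratio was 6.29 in replicate 1 and 2.78 in replicate 2 with Cct3 kept (4.54 ± 2.48). Without Cct3 it was 1.46 and 1.96.

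**Figure D3:**
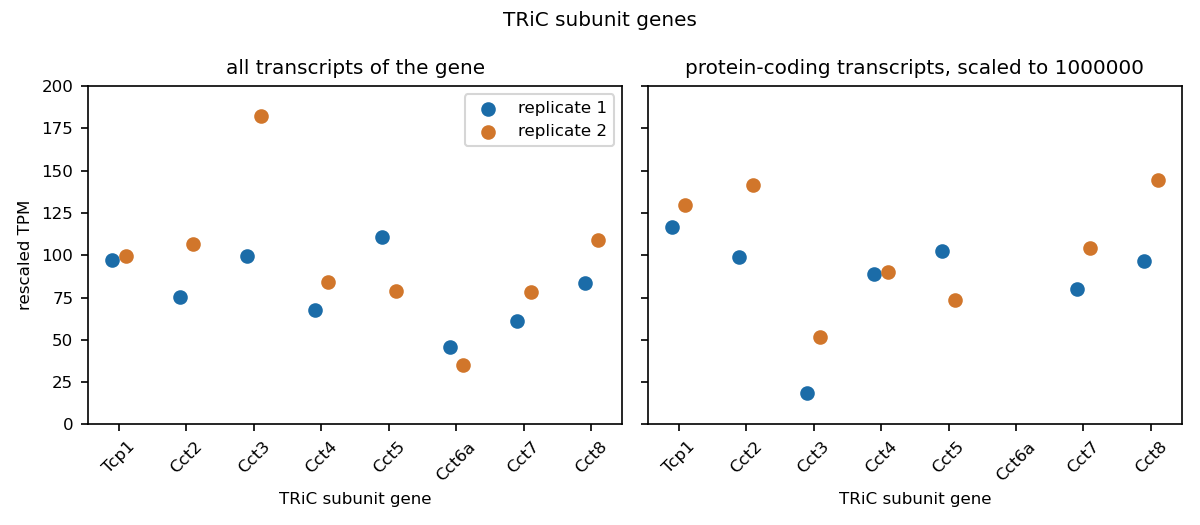
Rescaled TPM of the TRiC subunit genes in each library, summed over all transcripts of a gene (left) and over protein-coding transcripts, scaled so that such transcripts sum to 1000000 (right, where Cct6a has none). Cct3 has 99.7 and 182 on the left and 18.5 and 51.8 on the right.

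The mitochondrial chaperonin genes lie head to head on chromosome 1 and share a promoter region, shown above in the Hspe1 window. Hspd1, encoding Hsp60, had a rescaled TPM of 57.5 and 56.3 on 443 and 692 counts. Hspe1, encoding its lid Hsp10, had 64.4 and 99.0 on 140 and 334 counts. The ratio of Hspe1 to Hspd1 was 1.12 and 1.76 by TPM, and 0.316 and 0.482 by counts, since the Hspe1 transcript is shorter. Of the windows of Hspd1, 39.7% occur in other genes, chiefly its processed copy Hspd1-ps3, and 18.4% of those of Hspe1.

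Small heat shock proteins hold aggregating clients without ATP, and RNA of those with Hspb symbols was scarce. Small heat shock genes with other symbols were not examined here. Of 10 genes with Hspb symbols, 3 were detected, and only Hspb6 of these is a small heat shock protein, with 6.42 and 19.8 on 25 and 38 counts. All of these Hspb6 counts were assigned to processed transcripts, 84.3% of the replicate 2 TPM to one of 350 bases, and Lin37 overlaps the gene on the opposite strand with 90 and 79 counts. Hspbap1, a protein that binds Hspb1, had 27.8 and 18.8, all in a transcript typed as a target of nonsense-mediated decay. Hspbp1, an exchange factor for Hsp70, had 5.56 and 7.45. Hspb11, an intraflagellar transport protein, had 12 and 1 counts and was not detected. Hspb1, Hspb2, Hspb3, Hspb7, Hspb8 and Hspb9 had 0 counts in both libraries. For Hspb1 the limit that a count of 0 allows, 3 counts, is a rescaled TPM of 1.14 in replicate 1 and 0.725 in replicate 2, and covers counting error only. That limit says less for Hspb1 than for the others, because 48.8% of its windows are shared with other genes, chiefly Hsp25-ps1.

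In all, 14 members had 0 counts in both libraries and 7 had reads without being detected. The 7 were Dnajb5, Dnajc16, Dnajc24, Dnajc27, Hspa1l, Hspa2 and Hspb11. The counts of Dnajb13 (25 and 53) should be read with care, since the gene overlaps Ucp2 on the opposite strand, which held 11936 and 16524 counts, and the strand setting of the counting is not given in the sources used here. Dnajb3 likewise lies within the Ugt1a genes on the opposite strand.

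Transcript makeup differed among the leading chaperones. Of 39 members with at least 100 counts in both libraries, 32 were led by a protein-coding transcript in both, and 34 had the same leading transcript. The leader held at least 95% of the TPM in both libraries in 12 genes and under 60% in at least 1 library in 14 genes. In 7 of the 39 genes a single transcript is annotated, which fixes its share at 100%. Protein-coding transcripts made up 74.0% and 76.5% of the chaperone TPM, against 80.0% and 80.1% over nuclear protein-coding genes without the adult globins. Retained-intron transcripts made up 11.9% and 10.9%, against 10.2% in both libraries without the globins and 18.4% and 19.2% with them. Processed transcripts made up 11.4% and 8.30%, against 6.70% and 6.67% without the globins and 3.77% in both libraries with them. By counts, protein-coding transcripts held 87.4% and 89.0% of the chaperones, against 87.4% and 87.3%.

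Short noncoding transcripts weighed on the TPM of several leading genes. For Hspa8, the coding Hspa8-202 carried 39.4% and 46.0% and the coding Hspa8-201 carried 13.6% and 15.5%. The processed transcripts Hspa8-209 (727 bases) and Hspa8-203 (606 bases) carried 22.3% and 19.1%, and 20.1% and 11.1%. For Hsp90b1, the retained-intron Hsp90b1-202 carried 38.6% and 35.9%, and this transcript is long (3222 bases), with 655 and 829 counts. For Dnajb2, the coding Dnajb2-206 carried 38.3% and 45.4%, and the retained-intron Dnajb2-205 and Dnajb2-211 together made most of the remainder. In contrast, the leading coding transcript carried 97.8% and 99.2% of Hsp90ab1 and 98.5% and 99.5% of Dnajb4. The leader differed between the libraries in 5 genes, Dnaja1, Dnajb11, Dnajc2, Dnajc7 and Hspa4l.

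**Figure D4:**
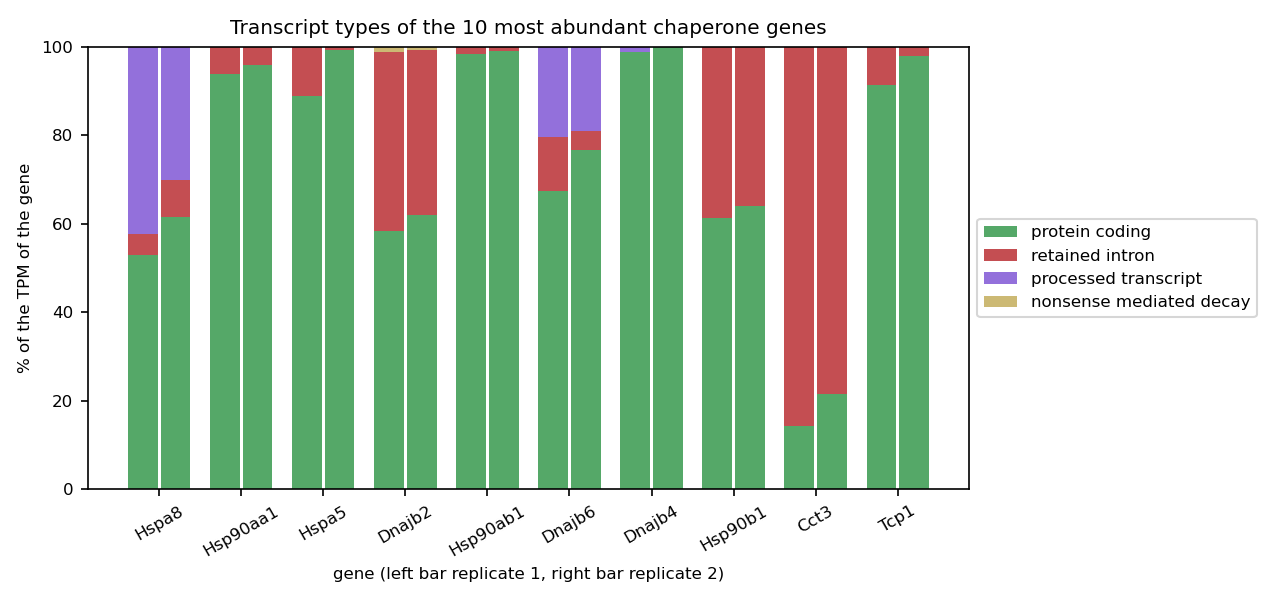
Percent of the TPM of a gene by annotated transcript type, for the 10 chaperone genes with the highest mean level, with replicate 1 left and replicate 2 right. Protein-coding transcripts hold 53.0% and 61.4% of Hspa8 and 14.2% and 21.4% of Cct3, but 98.4% and 99.2% of Hsp90ab1.

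The libraries were set side by side by the log2 ratio of replicate 2 to replicate 1 in scaled counts. Of 61 members with a mean of at least 20 reads, 14 (23.0%) differed by over 2-fold, against 19.8% of 9217 nuclear protein-coding genes, so the module varied about as much as the rest. Of the 14, 9 were higher in replicate 2 and 5 were higher in replicate 1. The median log2 ratio was 0.09 over the members and 0.01 over all genes, and the median size of the log2 ratio was 0.52 and 0.42. With a mean of at least 100 reads, 4 of 42 members differed by over 2-fold, against 7.14% of 5536 genes. Those 4 were Cct3 (1.15), Dnajc1 (1.13), Dnajb11 (1.02) and Dnajb1 (−1.0). Dnajb12 (−0.94) and Dnajb14 (−0.84) followed on the side of replicate 1. Dnajc1 was higher in replicate 2 by counts but lower by rescaled TPM, and its leading transcript was 456 bases long in replicate 1 and 5497 bases in replicate 2. Across the 61 detected members, Spearman's rho between the libraries was 0.911 and Pearson's r of log2(rescaled TPM + 1) was 0.922, against 0.874 and 0.917 across all detected genes; genes are not independent replicates.

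**Figure D5:**
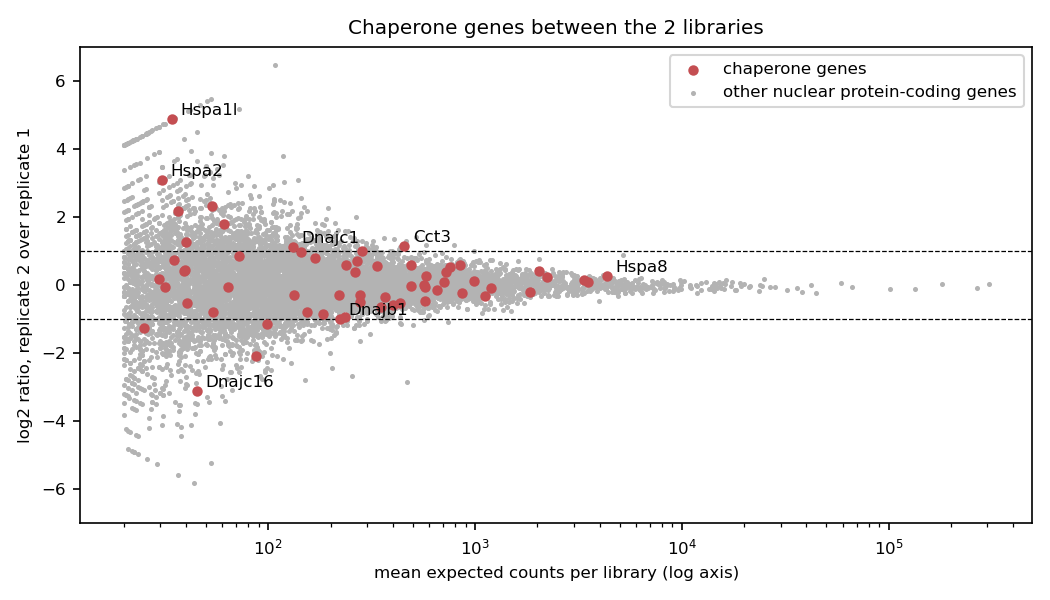
Log2 ratio of replicate 2 over replicate 1 in TMM-scaled counts against mean expected counts (log axis), for nuclear protein-coding genes averaging 20 or more reads. Dashed lines mark 2-fold, which 14 of 61 chaperone genes (red) and 19.8% of nuclear protein-coding genes exceed.

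Partners of the chaperones, taken from lists of known function, were mostly detected. Of 19 genes listed as Hsp90 co-chaperones, 18 were detected, led by Ptges3 (p23, which steadies the closed form of Hsp90) at 47.7 and 44.9. Stip1 (Hop, which bridges Hsp70 and Hsp90) had 38.9 and 39.6, Fkbp8 had 48.5 and 27.7, and Ppid, a cyclophilin, had 36.6 and 32.9. Unc45a was lowest with 2.57 and 0.59 and was not detected. The summed rescaled TPM of the list was 389 and 384, against 606 and 624 for the genes with Hsp90 symbols. The list and its sum include Trap1, at 15.4 and 14.9, which is a mitochondrial Hsp90 and not a co-chaperone.

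Of 14 Hsp70 co-chaperones and exchange factors, 12 were detected. Bag6, which triages tail-anchored and misplaced proteins, had 51.5 and 24.1, St13 (Hip) had 47.7 and 15.3, Bag1 had 34.0 and 28.8, and Tomm70a, a mitochondrial import receptor that docks Hsp70 and Hsp90, had 27.2 and 38.4. Sgtb had 0 counts. The other undetected gene, Bag3, an exchange factor that works with small heat shock proteins, had 58 and 8 counts and was named after its value was seen. Of 6 genes in a list of heat shock transcription factors and Hsbp1, 3 were detected. Hsf1, the main activator of the heat shock response, had 6.42 and 2.55, and Hsf2 had 4.70 and 1.57. The other detected gene, Hsbp1, had 35.3 and 30.2 and encodes a binding protein of Hsf1, not a transcription factor. Hsf3 and Hsf4 had 0 counts.

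Of 12 prefoldin and TRiC modulator genes, 11 were detected. Vbp1, a prefoldin subunit that hands actin and tubulin to TRiC, had 140 and 118, and Pfdn5 had 72.9 and 134. The tubulin folding cofactors Tbcd and Tbce, which act after TRiC, had 63.7 and 91.0, and 51.3 and 97.1. Pdcl2, known from germ cells, had 0 counts. All 12 ER folding genes were detected, led by the lectin chaperone Calr at 297 and 261, the disulfide isomerase P4hb at 151 and 110, the cyclophilin Ppib at 118 and 143, and Manf at 132 and 114. The lowest was Ero1lb with 2.78 and 4.90. Of 8 mitochondrial protease and folding genes, 7 were detected, led by Htra2 at 87.7 and 64.1 and Yme1l1 at 69.9 and 72.0, with Clpx at 16.7 and 21.2 and Ppif at 16.9 and 12.0. Clpb had 3 counts in each library and was not detected.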

How the data were processed

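Total RNA-seq of 2 erythroblast libraries was used, with a gene and a transcript table for each. The authors deposited expected counts (estimated reads per feature), TPM scaled over all rows, FPKM, and the percent of a gene's TPM held by each transcript, per the file headers. The posterior mean TPM deposited by the authors was an alternative. The deposited read-me names mm10 and a transcriptome alignment, with aligner and quantifier not given in the sources used here. Of 43346 gene rows, 42462 were matched to GENCODE M21 by identifier.

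TPM was divided by its sum over nuclear protein-coding genes and multiplied by 1000000; a rescaled value of 1 equals a deposited TPM of 0.0468 in replicate 1 and 0.0510 in replicate 2. Library ratios used expected counts rounded to whole numbers, TMM factors from edgeR 4.0.16 (0.962 and 1.04) and a prior count of 2; DESeq2 1.42.0 gave alternative factors. The steps were tested on simulated data. Shared sequence was searched in 50-base windows of GENCODE M21 transcripts. Python 3.11.15 and pandas 2.3.3 were used. Reads carry no molecular identifiers, so limits cover counting error only.

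The rule for named genes took up to 8 highest and 3 lowest members of each family, the extremes between libraries, members whose leading transcript differed or held under 60%, and the 4 highest and the lowest of each partner list. Members, lists and compartments were chosen with earlier results of these data known. Conditions could not be tested, as there is 1 group. Alternatives covered the TPM estimate, unit, rescaling, thresholds, scaling, filters, transcript types and leaving out a library. Hspa14 was not analysed here. The B lineage marker list is not reported here.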

Additional observations from a re-analysis of the deposited data

How the results depend on the processing

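The order of J-domain above Hsp70 held in the means under each alternative run, while mean TRiC lay above mean Hsp90 by rescaled TPM and below it by expected counts and over protein-coding transcripts. The ratio of Hspe1 to Hspd1 was 1.44 by TPM and 0.399 by counts, and Cct3 was the highest subunit by mean over all transcripts and the lowest over protein-coding ones. By expected counts, the family shares were 31.9% (J-domain), 28.8% (Hsp70), 21.2% (Hsp90), 14.2% (TRiC), 2.29% (mitochondrial chaperonin) and 1.54% (Hspb symbols), the share of Hspa8 in its family was 42.3%, the log2 ratio of Hsp90ab1 to Hsp90aa1 was −0.61 and the summed chaperone share was 0.619%. Over protein-coding transcripts only, an alternative chosen after seeing the data, the shares were 24.8% (Hsp70), 18.4% (Hsp90), 4.63% (mitochondrial chaperonin) and 0.362% (Hspb symbols). Hspa8 then held 54.0% of its family. That alternative leaves out transcripts not matched to GENCODE M21, which held 5.11% and 5.12% of the Hsp70 counts. For Hspa4l, 311 of 385 and 561 of 598 counts were on a single unmatched transcript of 9479 bases. The posterior mean put the Hspb share at 1.34%. The summed share was 0.696% without the adult globins and 0.0192% of all deposited TPM, where 29 members reached a TPM of 1. With a mean of at least 100 reads, 4 of 42 members were over 2-fold apart, against 14 of 61 with at least 20 reads. The share over nuclear protein-coding genes fell as well, from 19.8% to 7.14%. Detected members numbered 55 to 67 under the other thresholds, estimates and transcript choices.

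Leaving out each library gave the summed share as 0.381% to 0.405%, J-domain 34.2% to 35.8%, Hsp70 27.1% to 28.2%, TRiC 15.6% to 18.2%, Hsp90 15.4% to 15.9%, mitochondrial chaperonin 3.20% to 3.83%, Hspb symbols 1.15% to 1.24%, Hspa8 63.2% to 64.4%, the Hsp90 log2 ratio −0.31 to −0.19, the TRiC ratio 2.43 to 5.17 and 63 to 65 detected members. Of 65 named levels, 18 moved by more than the spread of the libraries under the posterior mean, 46 without the adult globins (a change of denominator) and 0 under FPKM. Of 38 leading-transcript shares, 15 moved under the posterior mean. Depth limits genes of few reads, and 1 library decides the level of Dnajc21 and Hspa1l. No paired analysis was possible because there is only 1 group.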

Other observations

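Processed copies of chaperone genes were at 0 counts in 7 of the 11 named pseudogene rows. Hspe1-ps5 was the exception of highest level, with a rescaled TPM of 10.9 in replicate 1 and 87.9 in replicate 2 on 6 and 70 counts. Its parent Hspe1 had 64.4 and 99.0. Hspd1-ps3 had 1.16 and 24.7 counts and Dnaja1-ps had 11 and 4. These rows hold reads that the authors' quantifier assigned to the copy, and a read from the parent gene could be assigned there; how many were was not tested.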
